A study of Mus musculus with 7 samples.

Results

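Glucose uptake, glycolysis and the entry of pyruvate into mitochondria were described through 40 genes in the cortex of APP/PS1 mice fed a ketogenic diet. The genes were picked by function from pathway knowledge, and their rows were taken by gene symbol. All 40 are among the 23413 symbols counted in every library, and 39 of them held enough reads to be tested. The 40 genes cover 2 glucose transporters, 3 hexokinase and isomerase genes, 3 phosphofructokinase genes, 2 genes of the enzymes that set fructose 2,6-bisphosphate, 9 genes of lower glycolysis, 2 lactate dehydrogenase genes, 2 pyruvate carrier genes, 4 genes of the pyruvate dehydrogenase (PDH) complex, 4 of its kinases and phosphatase, pyruvate carboxylase, 4 glycogen genes and 4 pentose phosphate genes.

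Cortex RNA came from 7 mice, 4 on a control diet (CD, written SD in the labels) and 3 on the ketogenic diet (KD). All 7 carried the transgenes of the APP/PS1 line, which are driven by the mouse prion promoter, and no wild-type mice are among the libraries used here. The diets began at 6 months of age and ran for 7 months, and the mice were 13 months old at collection. CD supplied 74% of energy as carbohydrate, 16% as fat and 10% as protein, while KD supplied less than 0.5% as carbohydrate, 90% as fat and 10% as protein. Libraries were made from total RNA of 10 mg of frozen cortex per mouse and read in 50-base pairs. Both sexes were used in the study, and the labels do not give the sex of these mice.

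Neurons and glia take up glucose through facilitative transporters, phosphorylate it by hexokinase and split it in glycolysis into pyruvate. Pyruvate is reduced to lactate by lactate dehydrogenase, or enters mitochondria through the pyruvate carrier and becomes acetyl-CoA at the PDH complex, which PDH kinases switch off and PDH phosphatases switch on. A ketogenic diet gives the brain ketone bodies, which make acetyl-CoA without these steps.

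The libraries held 22272883 to 36614954 counts, with TMM scaling factors from 0.98 to 1.04. Levels are given as CPM, the count of a gene scaled to a common library total, and the TMM factors enter only the fold changes, their tests and the library medians. The diets were set against each other with the quasi-likelihood test of edgeR, in which a log2 fold change above 0 means higher in KD. A call needed a Benjamini-Hochberg adjusted p under 0.05 over all 15881 tested genes. In 4 libraries (CD1, CD2, KD1 and KD2) Xist, which is transcribed from the inactive X chromosome, stood at 242 to 526 CPM, and the other 3 (CD3, CD4 and KD3) held 0.314 to 3.08 CPM. CD4 and KD3 also held the highest sums of 7 olfactory bulb markers, 539 and 431 CPM against 169 to 219 CPM in the other libraries. Most of the KD3 sum was Reln (311 CPM) and Slc17a6 (103 CPM). Eomes, Tbx21, Th and Doc2g held 7.76, 2.32, 10.6 and 13.6 CPM in CD4, but 0.404, 0.135, 0.943 and 2.11 CPM in KD3. Cdhr1 was raised in both (32.4 and 12.9 CPM). KD3 also held the highest sum of 8 striatal markers, 332 CPM against 128 to 197 CPM elsewhere. CD3 and KD3 held the least RNA of oligodendrocyte markers, 1267 and 1300 CPM summed over 11 genes against 2406 to 4756 CPM. The neuronal markers of cortex were present in every library, at 6330 to 8704 CPM summed over 10 genes. In bulk tissue, fewer cells of a type and less RNA per cell cannot be told apart.

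No member passed the adjusted threshold, and no gene did (0% of those tested, with a smallest adjusted p of 0.979 in edgeR's test). The members' adjusted p-values ran from 0.979 to 0.999. At an unadjusted p under 0.05 there were 0 of 39 members, while 506 of all genes, or 3.19%, lay under that value. By direction alone, 28 members were lower and 11 higher in KD. That is 71.8% lower, where 51% of all genes were. Over the members the log2 fold change had a median of -0.085, and over all genes one of -0.0033. The fold changes ran from -0.32 for Gbe1 to 0.19 for Hk2, and 32 of 39 were smaller than 0.2 in size. Their standard errors had a median of 0.10, against 0.16 over all genes. Pkm was the single member for which every KD library lay below every CD library, a pattern that 2.56% of all genes showed. None lay above in every KD library, as 1.64% of all genes did.

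**Figure D1:**
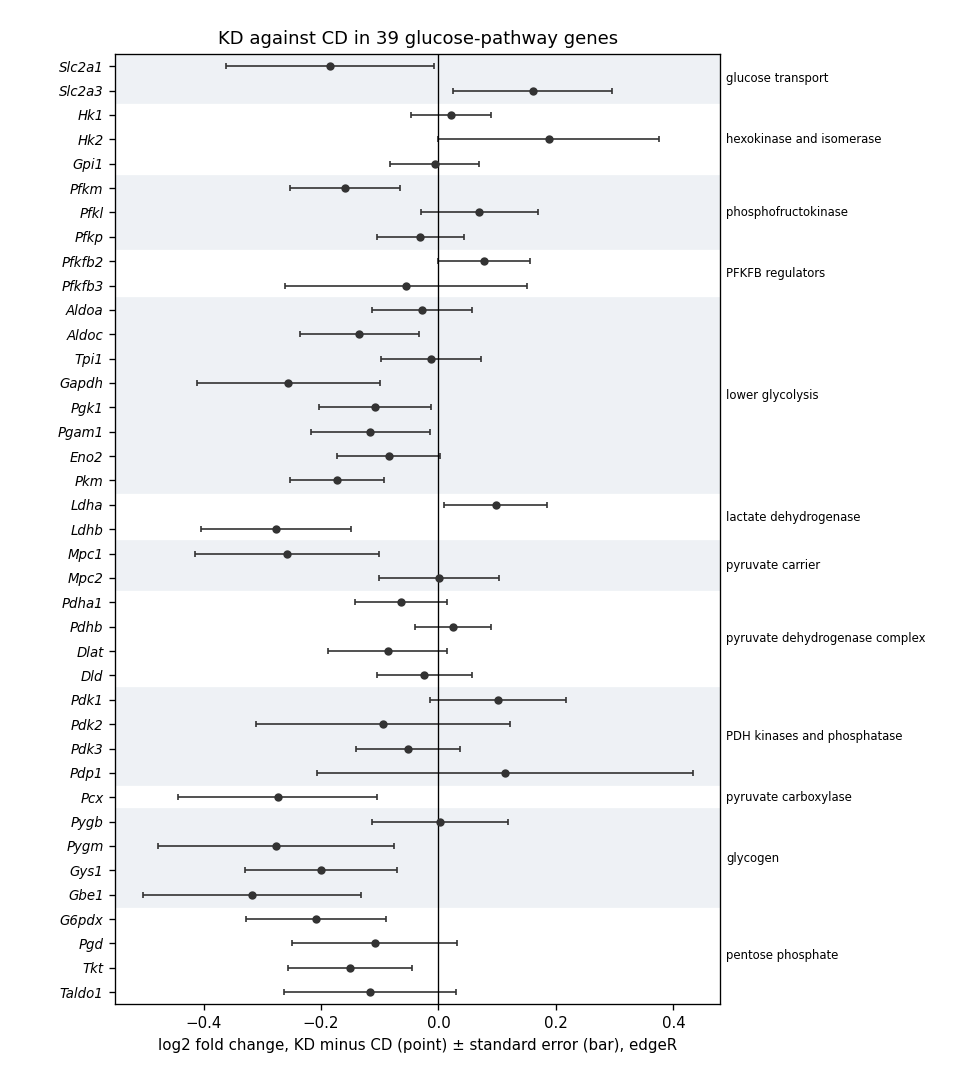
The log2 fold change of KD against CD (horizontal axis, points) with its standard error (bars) is drawn for the 39 tested members, shaded by role. The points lie between -0.32 and 0.19, with 28 below 0, and none passed the adjusted threshold.

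The direction was uneven between roles. All 8 tested genes of lower glycolysis were lower in KD (median log2 fold change -0.11), and so were all 4 pentose phosphate genes (median -0.13). Of the glycogen genes, 3 of 4 were lower, as were 3 of 4 genes of the PDH complex and 2 of 3 phosphofructokinase genes. The transporters, the enzymes of fructose 2,6-bisphosphate, the lactate dehydrogenases and the pyruvate carriers each had 1 gene lower and 1 higher. The count for lower glycolysis was 6 of 8 without CD2 (Aldoa and Tpi1 turned), 7 of 8 without KD1 or without KD2, and 8 of 8 without any other single library, and the pentose phosphate count was 3 of 4 without KD2. Among the low-Xist libraries the counts were 5 of 8 for lower glycolysis (Aldoa, Tpi1 and Eno2 turned), 3 of 4 for the pentose phosphate genes and 1 of 3 for phosphofructokinase. When each library was left out in turn, the counts ran from 2 to 3 of 4 for the PDH complex, from 2 to 3 of 3 for phosphofructokinase and from 3 to 4 of 4 for glycogen, and without both CD4 and KD3 the PDH complex had 1 of 4. No test was made of these counts.

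Levels per kilobase of annotated exon were compared between genes, since a long gene gathers more reads than a short one at the same level. Aldoa led with 513 ± 25.7 CPM per kb in CD (SD, n = 4), followed by Ldhb at 256 ± 26.7, Aldoc at 255 ± 25.4, Pkm at 248 ± 11.4 and Tpi1 at 221 ± 7.73. Ldhb, Aldoc and Pkm did not differ beyond their spread in this order. The annotation holds 2 gene records under the symbol Aldoa, and the length used is that of the record that overlaps the RefSeq gene, while the deposited counts are per symbol. At the other end stood Hk2 at 1.43 ± 0.17, Pgd at 3.55 ± 0.36 and Gys1 at 3.66 ± 0.52 CPM per kb, the last pair again within their spread. The merged exons can be much longer than the longest coding transcript (6447 against 2218 bases for Pgd, 5001 against 2432 for Pkm). The order of the genes therefore depends on the length used. Together the 40 genes took 0.977% to 1.07% of all counts in a library.

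**Figure D2:**
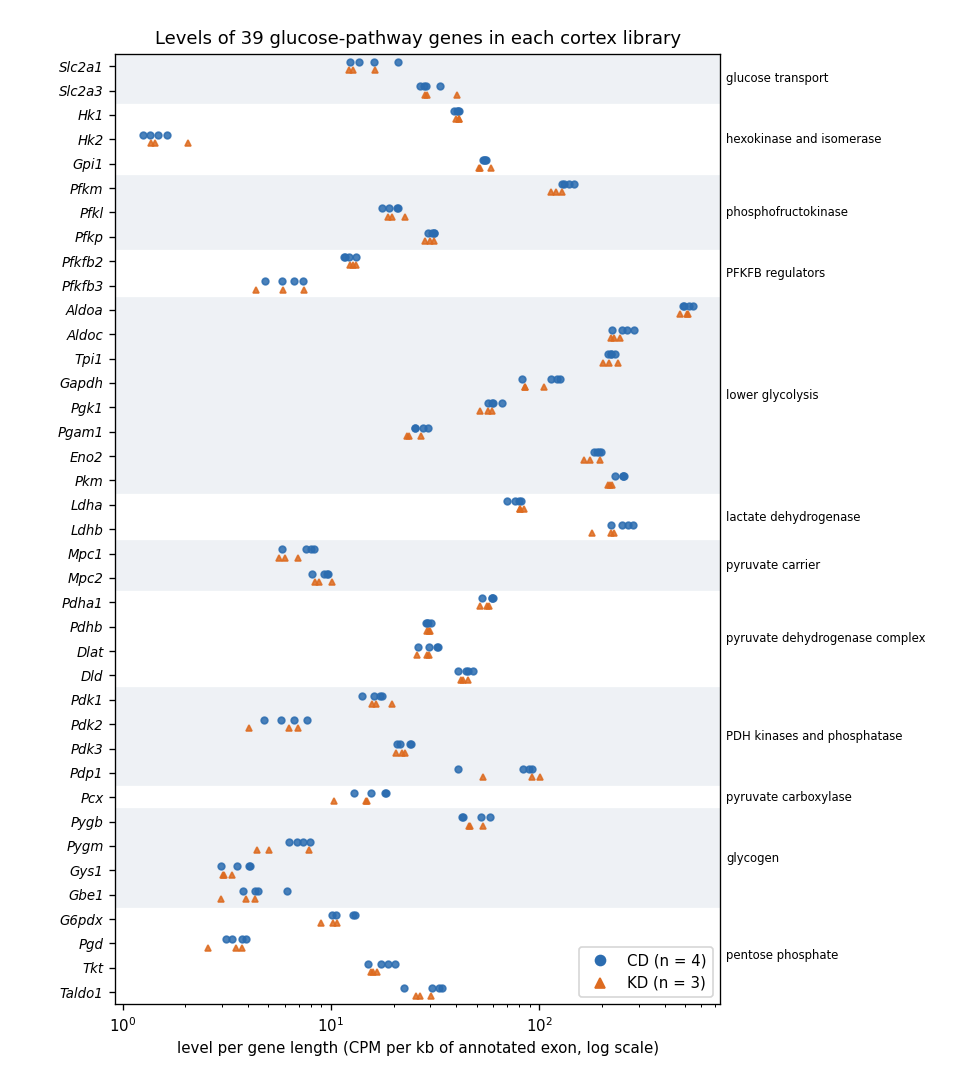
Each row is 1 of the 39 tested members, grouped by role, and each mark is a library (circles, CD; triangles, KD) at its level in CPM per kb of annotated exon on a log axis. The levels span from about that of Hk2 (CD mean 1.43) to that of Aldoa (CD mean 513), and the marks of the diets lie among each other for every gene but Pkm.

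Sequence before the transcription start is shown for Ldha, Ldhb and Pgk1. The lactate dehydrogenase pair had the largest difference in ratio between the diets, and Pgk1 is among the lower glycolysis genes with a single listed start. Of these, Pgk1 has the most matches to the motif below, 2, while Pgam1 has 1 and Tpi1, Gapdh and Eno2 have 0. The sequences are the 250 bases before a RefSeq start on the gene's strand, from GRCm38.p6. Ldha has another listed start, whose window holds no match to the motif below. The motif ACGTG, the core of the site bound by hypoxia-inducible factors, was sought on both strands and is in capitals, so that it also reads CACGT on the printed strand. It overlaps the E-box CACGTG, where both strands match.
Ldha, chr7:46845554-46845803, plus strand: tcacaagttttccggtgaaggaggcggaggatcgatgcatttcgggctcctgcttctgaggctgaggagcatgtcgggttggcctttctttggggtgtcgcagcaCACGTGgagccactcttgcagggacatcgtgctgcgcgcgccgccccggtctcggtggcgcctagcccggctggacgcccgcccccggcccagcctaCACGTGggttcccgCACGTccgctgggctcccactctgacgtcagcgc
Ldhb, chr6:142507958-142508207, minus strand: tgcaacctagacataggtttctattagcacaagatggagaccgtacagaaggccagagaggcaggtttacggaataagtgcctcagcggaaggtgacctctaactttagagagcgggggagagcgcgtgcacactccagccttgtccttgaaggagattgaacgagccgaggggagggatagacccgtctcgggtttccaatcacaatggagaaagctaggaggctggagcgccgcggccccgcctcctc
Pgk1, chrX:106186850-106187099, plus strand: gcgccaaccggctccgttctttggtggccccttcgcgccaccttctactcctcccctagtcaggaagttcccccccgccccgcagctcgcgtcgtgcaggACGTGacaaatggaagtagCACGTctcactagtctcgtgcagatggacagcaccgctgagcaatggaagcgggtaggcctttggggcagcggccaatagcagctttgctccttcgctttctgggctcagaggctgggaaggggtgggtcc
The Ldha window holds 3 stretches in capitals, 2 of them CACGTG, and the Pgk1 window holds 2. In the Ldhb window these letters do not occur. RefSeq windows were matched for 38 of the 40 members, all but Slc2a3 and Pdp1. ACGTG lay before at least 1 start of 16 of them (42.1%), against 18.5% of 27025 genes, and members can have several starts. Counted by start, it lay before 20 of 57 member starts (35.1%) and 16.6% of all 32851. CACGTG lay before 6 members (15.8%, against 6.86% of genes), and GGGCGG, the GC box, before 25 (65.8%, against 35.4%). TNAAGGTCA, the extended site of estrogen-related receptors, was before 0 of 38 members and 1.30% of genes. These matches are letters in a window and were not tested as sites.

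Glucose transport was read from Slc2a1 and Slc2a3. Slc2a1 encodes GLUT1, the transporter of the blood-brain barrier and astrocytes. It stood at 56.7, 48.1, 43.5 and 73.5 CPM in CD and at 57.3, 42.8 and 44.8 CPM in KD. CD4 was the highest and KD2 the lowest, and the groups overlapped, with a log2 fold change of -0.18 (standard error 0.18, unadjusted p = 0.328 in edgeR). It was -0.040 without CD4 and -0.33 without KD1. CD4 also held the highest summed level of the 9 endothelial markers, 367 CPM against 217 to 276 CPM in the other 6 libraries, and its part in the Slc2a1 value was not tested. Slc2a3 encodes GLUT3, the main neuronal transporter. Its CD libraries held 194, 203, 243 and 208 CPM and its KD libraries 210, 205 and 293 CPM. The high value was KD3 alone, and the log2 fold change was 0.16 (standard error 0.14).

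Hexokinase traps glucose as glucose 6-phosphate. Hk1, the main brain isoform, was among the steadiest genes, at 349, 334, 351 and 344 CPM in CD and 342, 350 and 350 CPM in KD. The groups lay on top of each other, with a log2 fold change of 0.021 (standard error 0.069). Hk2, the inducible isoform, held 9.75, 8.13, 8.88 and 7.46 CPM in CD and 12.3, 8.17 and 8.58 CPM in KD. It was high in KD1 alone, and its log2 fold change of 0.19 (standard error 0.19) was the highest of any member. Hk2 rested on as few as 191 counts in a library. Gpi1, which turns glucose 6-phosphate into fructose 6-phosphate, showed a log2 difference of -0.0067 (standard error 0.076).

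Phosphofructokinase commits fructose 6-phosphate to glycolysis and has muscle (Pfkm), liver (Pfkl) and platelet (Pfkp) isoforms, all of which the brain uses. Pfkm held 489, 462, 428 and 438 CPM in CD and 403, 430 and 379 CPM in KD. KD2 alone reached the CD range, just above CD3, and the log2 fold change was -0.16 (standard error 0.093, unadjusted p = 0.123). Pfkp stood at 394, 420, 420 and 412 CPM in CD and at 381, 401 and 418 CPM in KD. The diets overlapped and differed by -0.031 on the log2 scale (standard error 0.074), and Pfkl differed by 0.069 (standard error 0.10). Pfkfb3 and Pfkfb2 encode enzymes that make and degrade fructose 2,6-bisphosphate, an activator of phosphofructokinase. Pfkfb3 held 55.5, 43.9, 50.3 and 36.6 CPM in CD and 56.1, 44.3 and 33.1 CPM in KD, so that each diet had low and high libraries. Its log2 fold change of -0.055 had a standard error of 0.21, and Pfkfb2 stood at 0.077 (standard error 0.078).

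Aldolase splits fructose 1,6-bisphosphate. Aldoa, the isoform of muscle and neurons, held 1440, 1584, 1424 and 1523 CPM in CD and 1485, 1374 and 1506 CPM in KD. These ranges overlapped, with a log2 fold change of -0.028 (standard error 0.084). Aldoc, the isoform of astrocytes and some neurons, held 928, 814, 730 and 858 CPM in CD and 742, 795 and 720 CPM in KD. CD3 lay among the KD libraries, and the log2 fold change was -0.13 (standard error 0.10). The 11 astrocyte markers summed to 5190 to 5899 CPM in CD and to 4758 to 7308 CPM in KD, highest in KD1 and lowest in KD3. The largest part was Slc1a2, at 5183 CPM in KD1 and 2869 CPM in KD3. Slc1a3, another of the 11, was instead highest of all libraries in KD3 (768 CPM).

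The next steps lead from triose phosphates to phosphoenolpyruvate. The log2 fold changes were -0.012 for Tpi1 (triose phosphate isomerase), -0.26 for Gapdh (the dehydrogenase of glyceraldehyde 3-phosphate), -0.11 for Pgk1 (phosphoglycerate kinase), -0.12 for Pgam1 (phosphoglycerate mutase) and -0.085 for Eno2 (the neuronal enolase). Gapdh, often used as a reference gene, was low in CD3 at 343 CPM and lay between 470 and 519 CPM in the other CD libraries, against 354 to 434 CPM in KD. Gapdh shares 82.5% of the 50-base stretches of its longest coding transcript with transcripts of other genes, and Pgk1 shares 68.0% and Pgam1 41.5%. The counts of these genes therefore depend on how reads with several matches were treated. Eno1, the enolase of all cells, was listed at 0 to 10 counts in every library and was not tested. It shares 72.2% of its stretches with other genes, but Gapdh shares more and held at least 343 CPM. Why Eno1 had so few counts was not tested, and its level was not read.

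Pkm encodes the pyruvate kinase of brain and muscle, which makes pyruvate and ATP, and lies on chromosome 9 of mm10 from 59656368 to 59679375 on the plus strand. Its CD libraries held 1263, 1280, 1158 and 1269 CPM and its KD libraries 1091, 1072 and 1123 CPM. The highest KD library, KD3, lay just below the lowest CD library, CD3. The log2 fold change came to -0.17 (standard error 0.079), with an unadjusted p of 0.0594 and an adjusted p of 0.979 in edgeR's test. Pkm shares 34.4% of its 50-base stretches with other genes and pseudogenes. The sums of the 9 markers of inhibitory and parvalbumin neurons also kept apart between the diets. They were 1127 to 1443 CPM in CD and 986 to 1047 CPM in KD, with Gad1 the largest part (means 548 and 420 CPM). Of the 9, 7 were lower and 2 higher (Gad2 and Erbb4), where 51% of all genes were lower. An unadjusted p under 0.05 was found for 3, all lower (Gad1, Syt2 and Kcnc1), beside 3.19% of all genes. The part of these markers in the Pkm difference was not tested.

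Lactate dehydrogenase interconverts pyruvate and lactate, and tetramers rich in the Ldha product are usually tied to lactate production and those rich in the Ldhb product to its use. Ldhb lies on chromosome 6 from 142490249 to 142507957 and Ldha on chromosome 7 from 46841475 to 46855627. Ldhb held 444, 421, 347 and 393 CPM in CD and 346, 359 and 282 CPM in KD. The KD libraries were at the low end, with CD3 between them. The log2 fold change was -0.28 (standard error 0.13), with an unadjusted p of 0.0604 and an adjusted p of 0.979 in edgeR. Ldha held 255, 270, 263 and 232 CPM in CD and 269, 266 and 279 CPM in KD, with a log2 fold change of 0.098 (standard error 0.088). KD3 and CD3, the lowest libraries of their groups for Ldhb, were also those with the least RNA of the 11 oligodendrocyte markers. KD1 did not share this match. Its marker sum was 4711 CPM against 1267 CPM in CD3, with nearly the same Ldhb (346 and 347 CPM). All 11 markers were lower in KD, where 51% of all genes were. None had an unadjusted p under 0.05, beside 3.19% of all genes. What part these markers have in the Ldhb difference was not tested. Ldhb shares 27.0% of its 50-base stretches with a pseudogene.

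**Figure D3:**
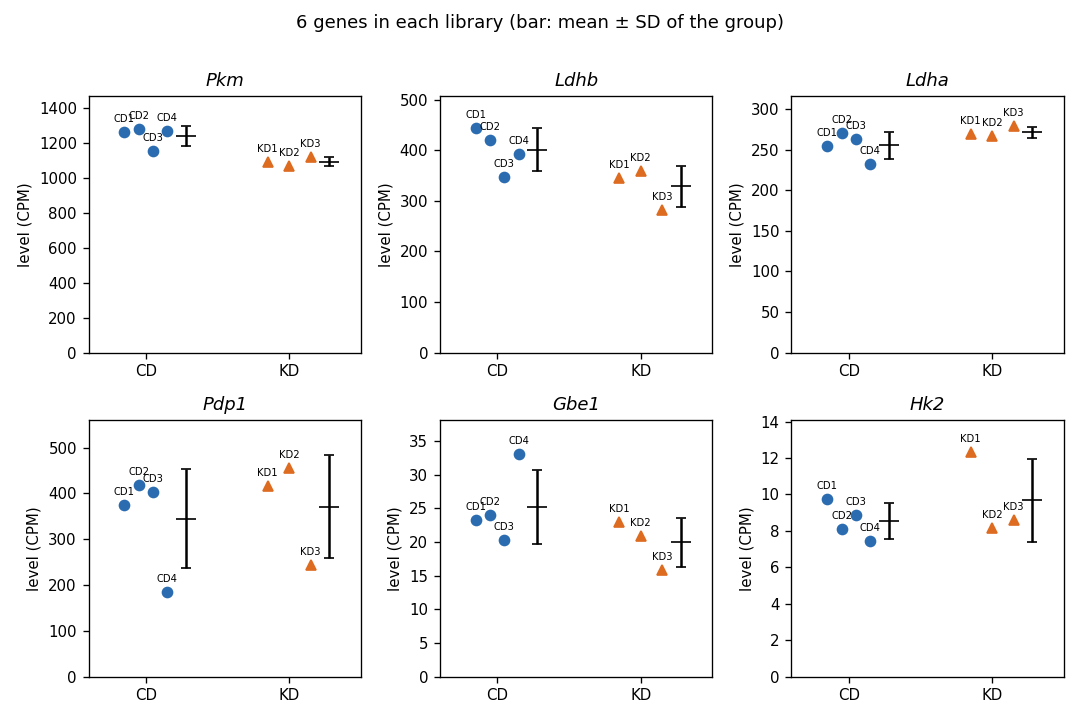
Levels in CPM of 6 members are shown for each library (circles, CD; triangles, KD; the axes start at 0), with the group mean and SD beside them. Pkm is lower in each KD library than in any CD library, Ldhb overlaps through CD3, Gbe1 and Hk2 each have 1 high library, and Pdp1 is low in CD4 and KD3 alike.

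Pyruvate enters mitochondria through a carrier of the Mpc1 and Mpc2 products. For Mpc1 the log2 fold change was -0.26 (standard error 0.16), and for Mpc2 0.00079 (standard error 0.10). The PDH complex turns pyruvate into acetyl-CoA and is built from the E1 subunits (Pdha1 and Pdhb), E2 (Dlat) and E3 (Dld). Pdha1 held 222, 221, 198 and 224 CPM in CD and 213, 194 and 209 CPM in KD. CD3 and KD2 were the low libraries, and the log2 fold change was -0.064 (standard error 0.079). Pdhb had one of 0.024 (standard error 0.065), the smallest standard error of the members, and its CD mean of 113 ± 2.33 CPM (SD, n = 4) stood beside 114 ± 1.78 CPM in KD (n = 3). Dlat came to -0.086 and Dld to -0.024 on the log2 scale.

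PDH kinases phosphorylate and switch off the complex. Pdk1 held 125, 133, 137 and 110 CPM in CD and 129, 123 and 154 CPM in KD. KD3 was high and CD4 low, with a log2 fold change of 0.10 (standard error 0.12). Pdk2 held 24.2, 15.1, 21.0 and 18.1 CPM in CD and 12.8, 21.9 and 19.9 CPM in KD. Its lowest library, KD1, and the highest, CD1, came with others in between from both diets, and the log2 fold change was -0.095 (standard error 0.22). Pdk3 had one of -0.052 (standard error 0.089). Pdk4, the kinase known for its rise in fasted muscle and heart, is not one of the 40 genes and had 12.2 CPM in CD and a log2 fold change of 0.17 (unadjusted p = 0.376), a gene named after its values were seen. Pdp1, the phosphatase that reactivates the complex, held 375, 418, 403 and 184 CPM in CD and 416, 455 and 243 CPM in KD. CD4 and KD3 were low and the other 5 libraries alike, so that its log2 fold change of 0.11 had the largest standard error of the members, 0.32. CD4 and KD3 also had the highest sums of olfactory bulb markers, in KD3 mostly from Reln and Slc17a6. Their sums of the 10 neuronal markers were the lowest (6893 and 6330 CPM, against 8255 to 8704 CPM). The largest part of these sums was Snap25 (3510 and 3087 CPM, against 4364 to 4876 CPM). Not all of these markers were low there, since Neurod6 was highest of all libraries in CD4 (164 CPM) and Stmn2 in KD3 (222 CPM). The part of these differences in Pdp1 was not tested.

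Pcx encodes pyruvate carboxylase, the mainly astrocytic enzyme that refills the citric acid cycle. It held 86.2, 74.3, 61.3 and 87.5 CPM in CD and 70.5, 70.4 and 48.9 CPM in KD. KD3 was lowest, and the other KD libraries lay above CD3, with a log2 fold change of -0.27 (standard error 0.17, unadjusted p = 0.144).

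Glycogen in the brain is stored mostly in astrocytes. Gbe1, the branching enzyme, lies on chromosome 16 from 70313949 to 70569716 and had the most negative log2 fold change of the members, -0.32, with a standard error of 0.19 and an unadjusted p of 0.123. It held 23.2, 24.0, 20.3 and 33.1 CPM in CD and 23.0, 20.9 and 15.9 CPM in KD, so that CD4 was high, KD3 low and the rest alike. Pygb, the brain glycogen phosphorylase, held 252, 204, 208 and 280 CPM in CD and 224, 220 and 259 CPM in KD, a log2 fold change of 0.0028 (standard error 0.12). Pygm, the muscle phosphorylase, which astrocytes also make, held 25.6, 20.2, 22.2 and 23.5 CPM in CD and 16.3, 25.4 and 14.2 CPM in KD. KD1 and KD3 were below every CD library and KD2 was near the top, and the log2 fold change was -0.28 (standard error 0.20). Without KD2 it was -0.58 (unadjusted p = 0.00384, adjusted p = 0.969 in edgeR), and without KD3 it was -0.11. KD2 was the only KD library not below the CD range, so leaving it out was bound to enlarge the difference. That unadjusted p is therefore not separate support for a diet effect. The summed level of 7 skeletal muscle markers was at most 12.8 CPM in any library. Gys1, glycogen synthase, stood at -0.20 on the log2 scale (standard error 0.13).

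The pentose phosphate pathway makes NADPH and ribose from glucose 6-phosphate. G6pdx, its first enzyme, held 40.1, 32.7, 31.1 and 39.2 CPM in CD and 32.8, 31.6 and 27.7 CPM in KD. The KD libraries lay within or below the lower CD libraries, with a log2 fold change of -0.21 (standard error 0.12, unadjusted p = 0.116). Tkt, transketolase, held 150, 129, 111 and 138 CPM in CD and 122, 114 and 117 CPM in KD. CD3 was the lowest of all, and the log2 fold change was -0.15 (standard error 0.11). Pgd (phosphogluconate dehydrogenase) had one of -0.11 and Taldo1 (transaldolase) one of -0.12.

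Ratios of related genes within a library do not depend on how libraries are scaled. Of 12 pairs, 11 could be compared, since Eno1 was not tested. With 4 libraries against 3, an exact two-sided permutation test over the 35 arrangements cannot give a p under 0.0571. Ldhb over Ldha, in counts, was 1.75, 1.56, 1.32 and 1.69 in CD and 1.29, 1.35 and 1.01 in KD. All but CD3 among the CD libraries were above every KD library. The difference of the mean log2 ratios was -0.38, the largest of the 11 in size, with an exact permutation p of 0.114 and an adjusted p of 0.55. Pfkl over Pfkm differed by 0.23 (exact p = 0.114) and Mpc2 over Mpc1 by 0.25 (exact p = 0.171). Slc2a3 over Slc2a1 differed by 0.32 with an SD of 0.42 in each diet (exact p = 0.343), and Pygm over Pygb by -0.34 (exact p = 0.343). In each of the 11 ratios the diets overlapped, and the adjusted p-values ran from 0.55 to 0.629.

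**Figure D4:**
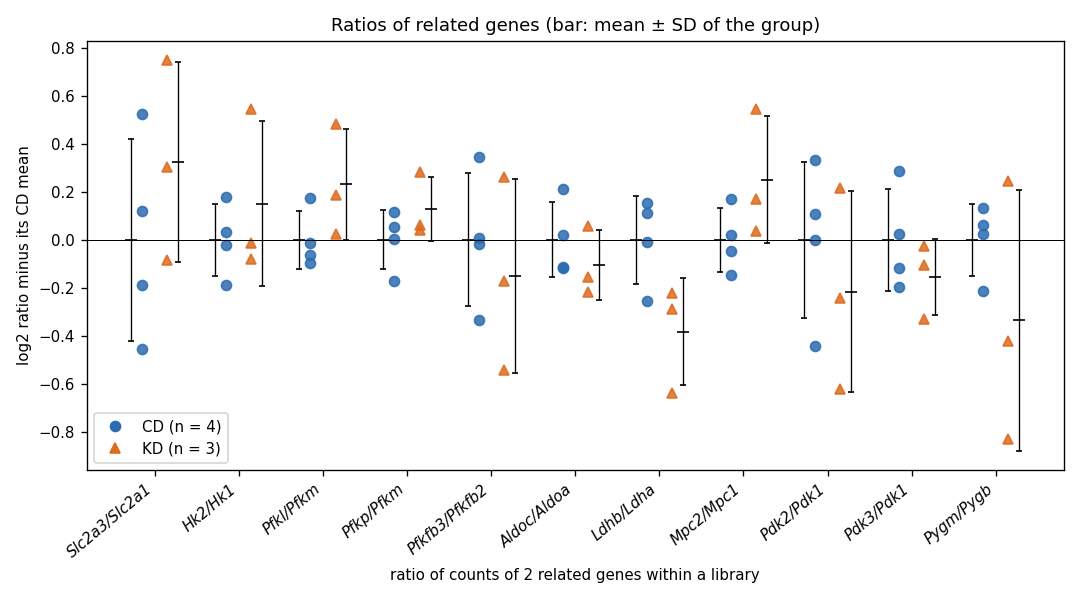
Log2 ratios of 11 pairs of related genes are drawn for each library relative to the CD mean of that ratio (circles, CD; triangles, KD), with group means and SDs. The KD mean of Ldhb over Ldha lies 0.38 below the CD mean, and the ranges of the diets overlap in each pair.

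The libraries also differed among themselves. Relative to the CD mean of each gene on the log2 scale after TMM scaling, the median over the 39 members was 0.060 in CD1, 0.062 in CD2, -0.080 in CD3 and -0.018 in CD4. In KD it was -0.0013 in KD1, -0.038 in KD2 and -0.15 in KD3. CD3 thus lay below KD1 and KD2. KD3 held the lowest value of all 7 libraries for 12 members and the highest for 4, while CD1 and CD2 held the highest for 11 and 13. Within the libraries of high Xist (CD1 and CD2 against KD1 and KD2), 30 of 39 members were lower in KD (76.9%, against 50.02% of all genes), with a median log2 fold change of -0.10. Within those of low Xist (CD3 and CD4 against KD3), 23 of 39 were lower (58.97%, against 52.4% of all genes) and the median was -0.075, with a single KD library assumed to vary like the CD ones. Ldhb had a log2 fold change of -0.29 in the first set, and Pygm had one of -0.69 in the second. Without CD3, 6 of 39 members had an unadjusted p under 0.05, all lower in KD (Gapdh, Ldhb, Mpc1, Pkm, Taldo1 and Tkt), or 15.4% against 7.38% of all genes tested in the same libraries. None of them passed the adjusted threshold, with an adjusted p of 0.674 for each in edgeR's test. CD3 lay below the CD mean for 26 of the 39 members, so leaving it out raised the CD mean of those. Leaving out any other single library gave 0 to 2 members with an unadjusted p under 0.05.

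**Figure D5:**
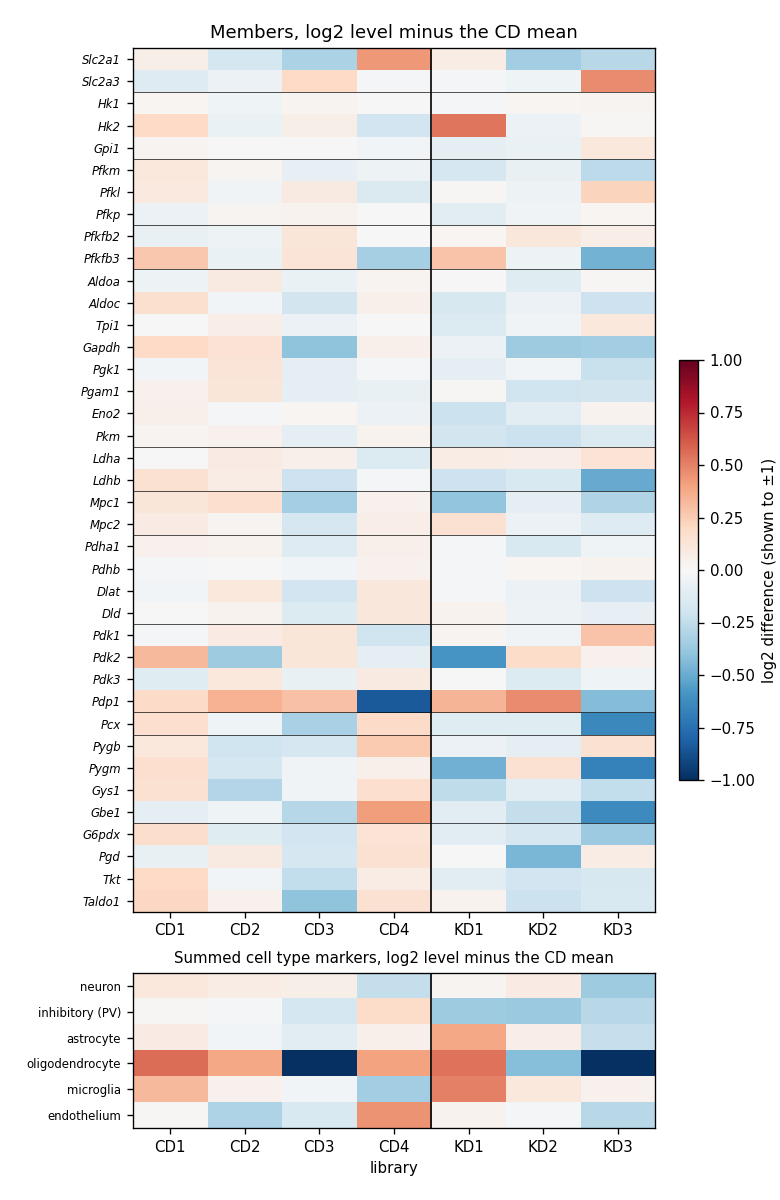
Colours give the log2 level minus the CD mean for the 39 tested members (upper panel, rows; shown to ±1) and for the summed markers of 6 cell types (lower panel) in each of the 7 libraries (columns). Pdp1 is low in CD4 and KD3, the oligodendrocyte sum is low in CD3 and KD3, and most members are paler than that sum.

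Of 69 other genes of the same steps, 63 were tested. In KD, 25 were on the higher and 38 on the lower side (median log2 fold change -0.035), where 51% of all genes were lower. None of the 63 passed the adjusted threshold, and 2 had an unadjusted p under 0.05, both higher, beside 3.19% of all genes. Pgam2, the muscle phosphoglycerate mutase, held 3.42, 2.98, 3.48 and 1.88 CPM in CD and 4.23, 4.06 and 5.43 CPM in KD, a log2 fold change of 0.64 (standard error 0.26, unadjusted p = 0.039). In this gene each KD library lay above the CD libraries.

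Among 18 genes of factors that sense glucose or oxygen or govern these genes, 11 were higher and 7 lower, none passed the adjusted threshold, and 3 had an unadjusted p under 0.05, all lower, beside 3.19% of all genes. They were Esrrg and Esrra, which encode estrogen-related receptors, and Ppargc1a, whose product PGC-1alpha is their coactivator. Esrrg held 54.98, 52.9, 40.4 and 43.0 CPM in CD and 35.1, 39.3 and 22.9 CPM in KD, a log2 fold change of -0.55 (standard error 0.21, unadjusted p = 0.0285). Every KD library was below every CD library, with KD3 far the lowest. Esrra held 28.8, 22.5, 18.9 and 29.1 CPM in CD and 17.8, 20.2 and 11.5 CPM in KD (log2 fold change -0.57, standard error 0.22, unadjusted p = 0.0333), and Ppargc1a 66.6, 66.5, 55.3 and 89.5 CPM in CD and 60.0, 50.5 and 43.6 CPM in KD (log2 fold change -0.42, standard error 0.17, unadjusted p = 0.0342). In both the diets overlapped through CD3. Adjusted p-values were 0.979 for all 3 in edgeR's test. The summed markers of inhibitory and parvalbumin neurons were likewise lower in each KD library (986 to 1047 CPM, against 1127 to 1443 CPM). KD3 was the lowest library for Syt2 (14.6 CPM), Pvalb (18.6 CPM), Kcnc1 (127 CPM) and Nefh (33.2 CPM), as it was for Esrrg. It was the highest of all libraries for Gad2 (258 CPM), Lhx6 (20.6 CPM) and Erbb4 (95.5 CPM), and its sum was the highest of the KD libraries. The part of these markers in the values of Esrrg, Esrra and Ppargc1a was not tested. Hif1a, the oxygen-sensing factor, had a log2 fold change of 0.078. Of 14 of its target genes outside the pathway 3 were higher and 11 lower, with 0 at an unadjusted p under 0.05. Among all genes, 51% were lower and 3.19% lay under that p.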

How the data were processed

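RNA-seq counts from the cortex of 7 APP/PS1 mice (4 CD, 3 KD) were used. The authors checked reads with FASTQC, aligned them to mm10 with STAR and deposited raw counts per gene symbol, without normalization or pooling. Versions, annotation and strand setting are not given in the sources used here, so genes that overlap others, such as Pfkp and Pitrm1, may share reads. Groups and replicate numbers came from the labels.

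Here these counts were filtered with filterByExpr and scaled by TMM in edgeR 4.0.16 (R 4.3.3). The diets were compared by its quasi-likelihood test (estimateDisp, then glmQLFit in its robust form, then glmQLFTest) without covariates, with Benjamini-Hochberg adjustment over 15881 genes. The same steps on counts drawn with known changes recovered 61.7% of 193 genes at a log2 change of 1 (15726 genes tested) and 81.8% of 198 at one of 2 (15752 tested). Levels per kb used the merged exons of GENCODE M21, which also gave coordinates. CPM used library totals without TMM factors. The longest coding transcript of each member in M21 gave the share of 50-base stretches found in transcripts of other genes, on either strand. SciPy 1.17.1 gave exact permutation tests. Replicates are separate mice, and p-values measure the spread between them.

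The members and gene lists were chosen with earlier results of these data known. Given with values in every library were 20 preset members (Slc2a1, Slc2a3, Hk1, Hk2, Pfkm, Pfkp, Pfkfb3, Aldoa, Aldoc, Pkm, Ldha, Ldhb, Pdha1, Pdk1, Pdk2, Pcx, Pygb, Pygm, G6pdx and Tkt), members with an unadjusted p under 0.05, the 3 with the largest log2 fold change in each direction, and other pathway genes and regulators with an unadjusted p under 0.05. One of the other pathway genes under that value is not reported here. Other genes given values were chosen after these were seen. Alternatives were other scalings, filters and tests (DESeq2 1.42.0, limma-voom 3.58.1), an Xist covariate, a replicate block (without CD4), leaving out each library and, added after seeing the data, leaving out CD4 with KD3 or CD3 with KD3 and splitting libraries at 100 CPM of Xist.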

Additional observations from a re-analysis of the deposited data

Results flagged for a closer look

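Pdp1, the PDH phosphatase, had 1 CD library far from the others. CD4 held 184 CPM against 375 to 418 CPM in the other 3, and its gap to the next library was 0.856 of the group's range on the log2 scale, above the 95% limit of Dixon's test for 4 values. KD3 was low as well, at 243 CPM against 416 and 455 CPM. Among the 50 values examined in this way, about 2.5 would pass by chance.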

How the results depend on the processing

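No member passed the adjusted threshold under any alternative, and the median log2 fold change of the members stayed between -0.10 and -0.050 in all of them, nearest 0 without CD1 or CD2 (-0.050 each, against -0.085). The cause of the changes below was not tested.

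Members with an unadjusted p under 0.05 numbered 0 of 39, where 3.19% of all genes lay. They numbered 2 with library size alone (5.13%, all genes 3.24%), 1 with genes of at least 1 count (2.5%, 3.02%), 1 in DESeq2 (2.56%, 3.68%), 4 with the Xist covariate (10.3%, 6.39%), 2 with the replicate block (5.13%, 5.89%), 1 without CD3 and KD3 (2.56%, 5.57%), 5 among high-Xist libraries (12.8%, 9.75%), 1 among low-Xist libraries (2.56%, 4.97%) and 0 to 6 when leaving out each library (6 without CD3), where all genes ran from 1.63% to 7.38%. Other pathway genes under that p numbered 2 of 63, where 3.19% of all genes lay. They numbered 1 of 68 with genes of at least 1 count (all genes 3.02%). Limma-voom gave 1 of 63 (2.81%) and the likelihood-ratio test 1 of 63 (3.14%). The Xist covariate gave 4 (6.39%), the replicate block 4 (5.89%) and high-Xist libraries 6 (9.75%), each of 63. Leaving out each library gave 0 to 6 (0 without KD3, all genes 2.22%, and 6 without CD3, all genes 7.38%).

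Of the 39 members, 21 kept the sign of the log2 fold change under all 22 alternatives and 18 did not. Leaving out each library gave ranges of -0.048 to 0.015 for Aldoa, -0.027 to 0.29 for Hk2, -0.26 to 0.10 for Pdk2, -0.11 to 0.35 for Pdp1, -0.26 to 0.13 for Pfkfb3, -0.063 to 0.077 for Pygb, -0.0087 to 0.24 for Slc2a3, -0.047 to 0.27 for the ratio Hk2/Hk1 and -0.36 to 0.046 for Pfkfb3/Pfkfb2. Low-Xist libraries gave 0.030 for Aldoa, 0.021 for Pdk2, -0.29 for Pdp1 and 0.0024 for Pfkp, and high-Xist libraries -0.034 for Pdk1, 0.018 for Pfkfb3 and -0.029 for Pygb. The others of the 18 were Dlat, Dld, Eno2, Gpi1, Mpc2, Pfkl, Pgd and Tpi1, each between -0.25 and 0.24. Without CD4 and KD3, Pdk1 had -0.059, Pfkfb3 0.018, Slc2a1 0.025 and Slc2a3 -0.028, and without CD3 and KD3, Pfkfb3 had 0.17 and Pygb -0.11. Pygb had -0.0091 with library size alone and -0.0062 with genes of at least 1 count. With the replicate block Pdp1 had -0.16.

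The replicate numbers shared by CD and KD were not used as pairs in the main comparison. Deviations of same-numbered libraries from their group means had correlations of 0.25, 0.19 and 0.098, the last just under the limit set of 0.1. Libraries with different numbers reached 0.31 (CD4 with KD3) and 0.21 (CD1 with KD2). With so few libraries, these correlations cannot settle whether the numbers mark pairs. The replicate block used the libraries numbered 1 to 3 and so left out CD4. With it Ldhb had an unadjusted p of 0.0079. Hk2, Mpc1, Pdk2, Pygm, Gys1, Gbe1 and Pgd held the fewest counts of the tested members, down to 191 in a library for Hk2. The standard errors did not simply follow the counts. Pdp1 had the largest, 0.32, with at least 5406 counts in each library, while Gys1 had 0.13 and Pgd 0.14. The median 95% interval of a member reached 0.23 to either side on the log2 scale, so that most smaller differences were not detectable.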
